A study of Mus musculus with 9 samples.

Results

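END2 cells and XEN cells were compared on 6 mouse bead arrays from Illumina, with 3 arrays to a line, out of 9 arrays in the study. The other 3 arrays held PYS2 cells and entered the fit only through its shared estimate of the spread. END2 cells are an endoderm-like line that came from P19 embryonal carcinoma cells, and they were kept in DMEM/F12 medium with fetal bovine serum. XEN cells are stem cells of the extra-embryonic endoderm that the study itself derived from ICR blastocysts, and they were kept in high glucose DMEM, also with fetal bovine serum. The labels give no treatment, time point or genetic change for either line. Each line is 1 culture lineage, so that its origin, its strain and its medium cannot be told apart in any difference given here. The study set 3 lines of this kind side by side in search of markers that tell extra-embryonic from definitive endoderm. Of the 45281 probes on the arrays, 15753 were present in END2 or XEN cells, and all of these were compared. They belong to 9063 of the 19057 named genes on the array, with 2035 probes that carry no gene name.

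The primitive endoderm arises in the blastocyst and forms both the visceral endoderm, an absorptive epithelium around the early embryo, and the parietal endoderm, single cells that lay down a thick basement membrane in the yolk sac. GATA and Sox transcription factors direct this lineage. Its visceral branch takes up maternal protein through megalin and cubilin and digests it in lysosomes, and its parietal branch secretes laminin and collagen IV. Mesenchymal cells, by contrast, secrete fibrillar collagens and proteoglycans and keep Hox genes active according to their place along the body axis.

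A probe was taken as detected on an array when its detection p was under 0.01, and as present in a line when at least 2 of the 3 arrays detected it. Levels are log2 values after background correction and quantile normalization, and a gene with several probes is represented by its brightest tested probe. Of all tested probes, 53.1% were called, and by gene it was 5019 of the 9063 (55.4%) that differed between END2 and XEN cells at an adjusted p under 0.05 (limma, Benjamini-Hochberg over all tested probes). Of these, 2564 (28.3% of the genes tested) were higher in END2 cells and 2455 (27.1%) were lower. The split was even, and the median difference over all genes was -0.01. At least 2-fold differences were seen for 1533 higher genes (16.9%) and 1416 lower genes (15.6%), and at least 10-fold differences for 246 and 191. Every END2 array lay outside the range of the XEN arrays for 5718 genes (63.1%). These shares are the background for each gene group below.

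In END2 cells 8418 genes were present and in XEN cells 7909, with 7264 present in both. All 3 END2 arrays and none of the XEN arrays detected 601 genes (3.15% of those on the array), and the reverse held for 419 genes (2.2%). Where a gene is described below as undetected in both lines, this covers the 6 END2 and XEN arrays and not PYS2 cells. For a gene that no array of a line detected, the level there is only an upper limit. Its difference is then a lower limit and is written with "at least". The dim side of that limit was set, array by array, to the lowest level of any detected probe or to the probe's own level where this was higher. A bulk array cannot tell fewer cells of a type from less RNA per cell, in any of these genes.

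The END2 arrays detected 13560 to 14940 probes and the XEN arrays 13266 to 13945. Over the tested probes, END2 and XEN arrays lay at Euclidean distances of 174 to 183 from each other, and the XEN arrays at 45.4 to 47.8 among themselves. END2 replicate 3 stood apart from its own group, at 71.8 from replicate 1 and 78.2 from replicate 2, which were 34.7 apart. Without it, 2692 genes were higher and 2689 lower in END2 cells. Whether the 3 samples of a line were grown separately is not stated. The p-values rest on the spread between samples of the same line, with PYS2 cells included, and this spread may be technical.

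Transcription factors of the extra-embryonic endoderm were mostly lower in END2 cells. Of 18 such genes on the array 14 were tested, and 11 of them were lower, 2 were higher and Hhex did not pass, with a median difference of -2.64 (-2.48 with undetected genes at their bound). Hhex, a homeobox factor of early endoderm, read 7.63, 7.59 and 8.5 in END2 and 8.27, 8.42 and 8.28 in XEN cells. The arrays overlapped (log2 difference -0.41, limma adjusted p = 0.152). Hhex passed as lower only with array weights (-0.66, adjusted p = 0.000835) and without END2 replicate 3 (-0.71, adjusted p = 0.00245), and in no other alternative. Sox7, a Sox factor of the primitive endoderm, read 4.39, 4.41 and 4.34 on the END2 arrays and 12.2, 12.68 and 12.33 on the XEN arrays. No END2 array detected it, and XEN cells exceeded END2 cells at least 135-fold (limma adjusted p = 1.96e-10). Sox17, its relative in endoderm formation, read 4.5, 4.6 and 4.47 in END2 and 11.39, 11.83 and 11.77 in XEN cells, at least 80.5-fold lower in END2 (adjusted p = 1.17e-10). For both genes the lines were separated by a wide gap. Sall4, a zinc finger factor of early embryo and XEN cells, was at least 120-fold lower in END2 cells (adjusted p = 1.4e-10).

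Gata4 and Gata6 gave a detected signal in both lines. Gata4 had only 1 tested probe, and whether this probe also reads other transcripts was not tested. Gata4 read 6.32, 6.19 and 6.1 in END2 and 9.14, 9.21 and 9.04 in XEN cells, 7.59-fold lower in END2 (adjusted p = 1.69e-07, limma), and was detected on every array. Gata6 read 12.57, 12.59 and 12.2 in END2 and 12.81, 12.98 and 12.82 in XEN cells. Its arrays did not overlap, but the 1.34-fold difference lay at the threshold (adjusted p = 0.0492) and no longer passed when any single array was left out, the lowest and highest adjusted p then being 0.0522 and 0.132. The mean of its 2 tested probes differed by only -0.07. Foxa2, a forkhead factor of endoderm, was 5.93-fold lower in END2 cells (adjusted p = 1.02e-06), and Hnf4a, a nuclear receptor of visceral endoderm and liver, at least 5.28-fold lower (adjusted p = 4.12e-07). Foxq1, a forkhead factor of epithelia, was 28.7-fold lower (adjusted p = 2.44e-06). The genes that ran the other way were Foxa1, a pioneer factor of later endoderm (at least 1.47-fold, adjusted p = 1.96e-06), and the LIM homeobox gene Lhx1 (at least 2.76-fold, adjusted p = 4.5e-06). Both were undetected on every XEN array.

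Of 10 markers of the primitive endoderm and its derivatives, every one was detected on all 3 XEN arrays, 6 were detected on all 3 END2 arrays, and 4 (Sox7, Sox17, Lama1 and Hnf4a) on no END2 array. The 6 include Gata4, which rests on 1 tested probe. Pdgfra, a receptor that marks the primitive endoderm, read 7.39, 7.65 and 6.34 in END2 and 12, 11.99 and 11.54 in XEN cells. It was thus detected in both lines at levels far apart, 26.3-fold lower in END2 (adjusted p = 1.05e-07, limma). Of 8 markers of fibroblasts and mesenchyme, 6 were detected on all END2 arrays and 2 (Twist1 and Acta2) on all XEN arrays. The summed log2 level of the 7 that could be summed was 59.9 to 60.9 on the END2 arrays and 40.3 to 41.3 on the XEN arrays, where 5 of them were undetected and add only background. The 3 trophoblast markers Cdx2, Elf5 and Tpbpa were detected on no END2 or XEN array. A wider trophoblast list went partly the other way. Of its 15 genes on the array 11 were undetected in both lines and 4 were tested, 2 higher and 1 lower in END2 cells. Plac1 and Ets2 were detected on all 3 arrays of each line, and Gata3 on all 3 END2 arrays and no XEN array. Of 4 markers of blood and endothelium only Cdh5 was detected, in XEN cells. The origin of END2 cells from embryonal carcinoma was set against 7 pluripotency markers, of which Pou5f1, Sox2, Zfp42, Tdgf1, Utf1 and Dppa4 were detected on no END2 array, and Nanog on all 3.

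Genes for the absorptive work of the visceral endoderm were lower in END2 cells for the most part. Of 14 endocytic and apical genes on the array 9 were tested, and 6 were lower and 1 higher (median -1.74, or -1.12 with bounds). Pth1r, the parathyroid hormone receptor, read 4.54, 4.57 and 4.39 in END2 and 11.1, 11.06 and 11.07 in XEN cells, at least 53.7-fold lower in END2 (adjusted p = 1.4e-10, limma). Pdzk1, a scaffold of apical membranes, was at least 7.27-fold lower (adjusted p = 4.51e-05) and Cubn, which encodes cubilin, at least 5.96-fold lower (adjusted p = 1.64e-06). Megalin differed less. Its gene Lrp2 read 9.23, 9.38 and 10.31 in END2 and 11.53, 11.68 and 11.24 in XEN cells, 3.58-fold lower in END2 without overlap (adjusted p = 0.000388). Slc9a3r1, another scaffold of apical membranes, was the member that was higher, 5.68-fold (adjusted p = 2.17e-07).

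Secreted plasma proteins were mostly undetected in both lines. Of 21 such genes on the array 12 were detected on no END2 or XEN array, among them Afp, Alb, Apoa1 and Apob. Of the 8 tested, 6 were lower in END2 cells, all of them undetected on every END2 array (median -1.68, or -0.94 with bounds). Ttr, the thyroid hormone carrier, read 4.39, 4.39 and 4.36 in END2 and 9.32, 7.99 and 7.57 in XEN cells, at least 7.79-fold lower in END2 (adjusted p = 2.08e-06, limma). Trf, which encodes transferrin, was the gene that was higher, at 6.82, 7.32 and 4.59 in END2 and 4.45, 4.4 and 4.4 in XEN cells (at least 1.65-fold, adjusted p = 0.0168). END2 replicate 3 did not detect it, and the call was lost without END2 replicate 1 or 2 (adjusted p = 0.0664 and 0.0704). Fabp3, a carrier of fatty acids, was outside these lists and among the largest differences of all. It read 6.31, 5.96 and 5.78 in END2 and 14.39, 14.45 and 14.52 in XEN cells, 347-fold lower in END2 (adjusted p = 6.38e-11).

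Genes with the largest differences were ranked by the fitted log2 difference, 15 on each side, and for those undetected in the other line the order is not settled. First among the genes higher in END2 cells stood Upk3b, a uroplakin that is also made by mesothelium. It read 13.78, 13.82 and 13 in END2 and 4.85, 4.48 and 4.49 in XEN cells, at least 257-fold higher in END2 (adjusted p = 5.57e-10, limma). Cxcl12, a chemokine that attracts cells bearing Cxcr4, read 13.5, 13.39 and 13.89 in END2 and 4.61, 5.46 and 5.36 in XEN cells, where 1 array detected it (350-fold, adjusted p = 2.19e-10). Further down the same side, by the size of the fitted difference, were Mmp2, Dcn, Cav1, Col6a1, Synpo, Ccn4, Mest, Hmgn3, Sema3f, Cpe, Bmp4, Axl and Cyp1b1. Synpo, an actin-binding protein, was at least 76.7-fold higher (adjusted p = 1.17e-10), Axl, a receptor tyrosine kinase, 121-fold (adjusted p = 9.52e-10), and Sema3f, a secreted guidance cue, at least 66-fold (adjusted p = 6.38e-11).

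On the other side Lama1, the laminin chain that defines the embryonic basement membrane, differed most. It read 4.39, 4.37 and 4.38 in END2 and 14.26, 14.46 and 13.87 in XEN cells, at least 466-fold lower in END2 (adjusted p = 6.38e-11, limma). After Fabp3, Sox7 and Sall4 came Spink1, Serpinb6c, Xlr4a, Kit, Sox17, Cldn6, Ctsh, Pga5, Capn6, Tmem51 and Pth1r. Spink1, a secreted trypsin inhibitor, was at least 120-fold lower in END2 cells (adjusted p = 8.56e-09), and Pga5, a pepsinogen, at least 68-fold lower (adjusted p = 9.08e-10). Of these 30 genes, 12 on the high side and 13 on the low side were undetected in the other line, as the plot of the largest differences shows with open symbols.

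**Figure D1:**
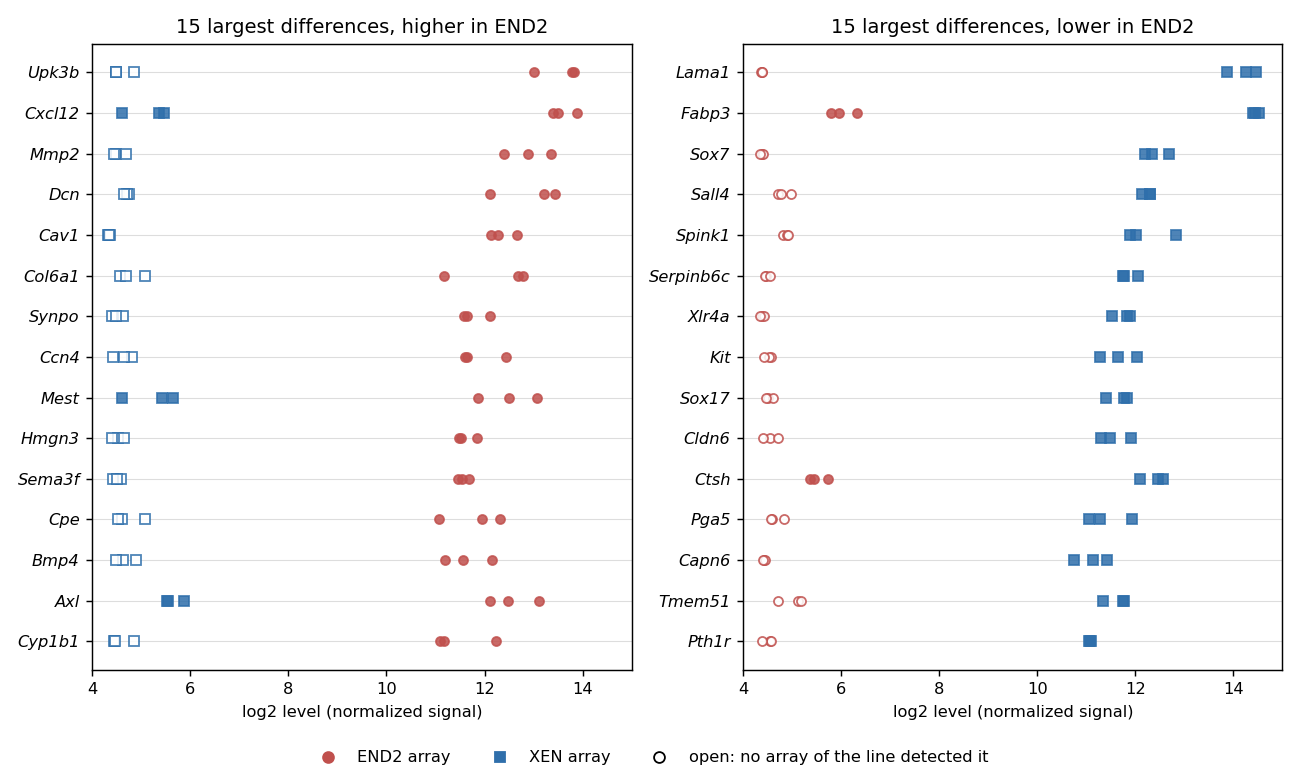
Log2 level of the 15 genes with the largest difference on each side, for each END2 array (circles) and each XEN array (squares), with open symbols where no array of that line detected the gene. In every gene the arrays of the lines are far apart, from at least 466-fold for Lama1 to at least 53.7-fold for Pth1r on the low side.

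The gene groups differed in how their members were spread over the directions. Beside the background of 28.3% higher and 27.1% lower genes, 89.5% of the tested interstitial matrix genes and 83.3% of the tested Hox genes were higher in END2 cells, and 83.3% of the pluripotency genes and 78.6% of the endoderm factors were lower. The presence filter lets in genes that are high in a single line, so these shares are descriptions and were not tested.

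**Figure D2:**
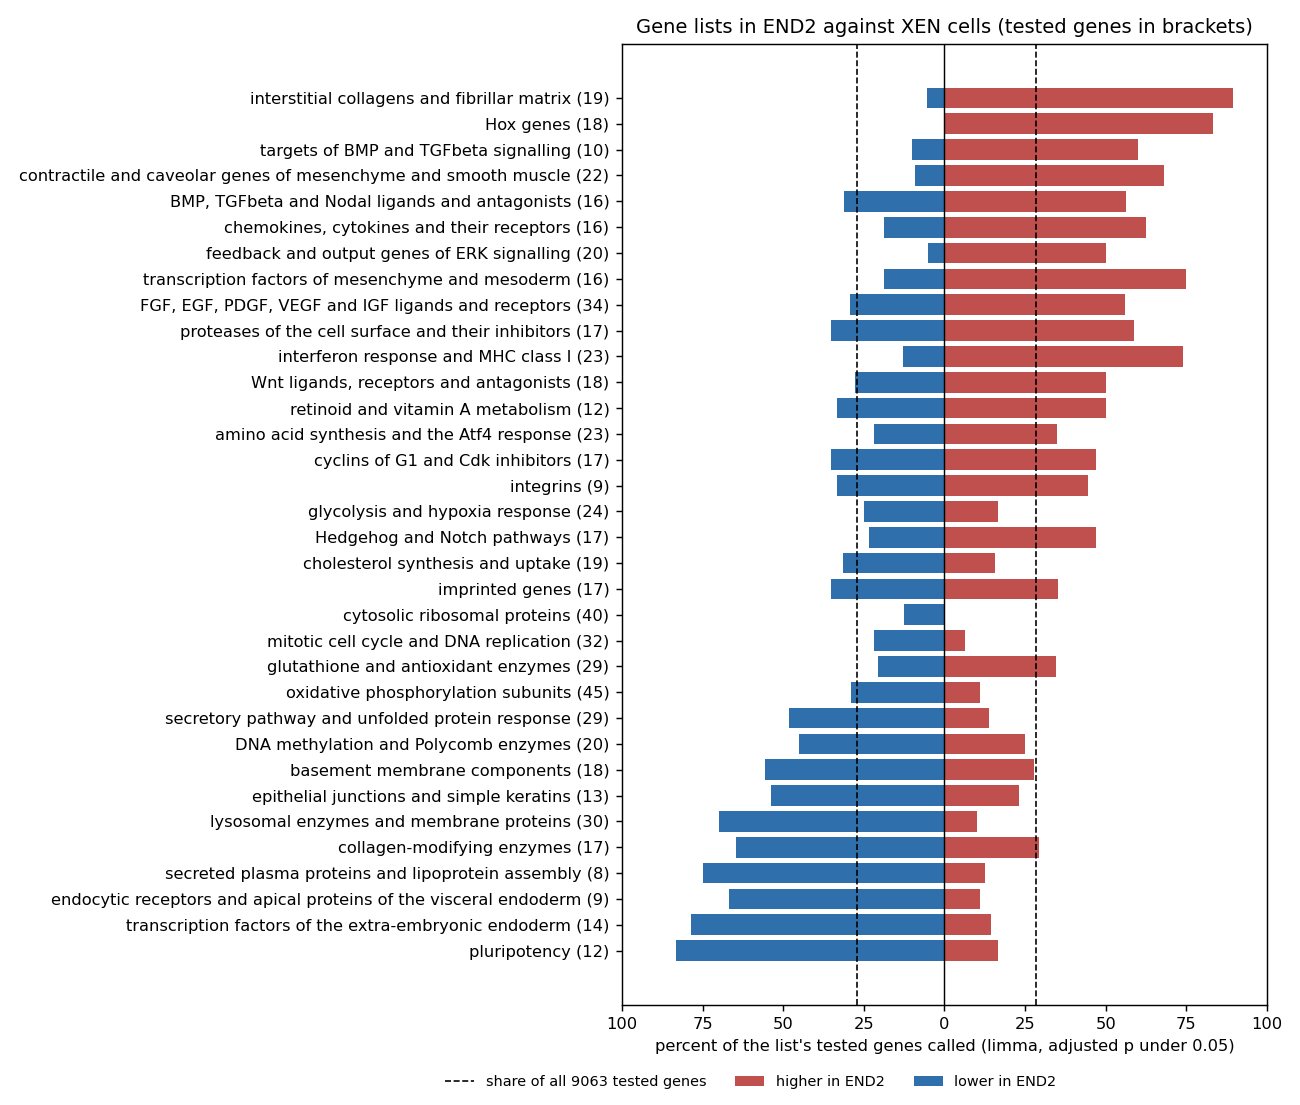
Percent of the tested genes of 34 groups that were higher (right) or lower (left) in END2 than in XEN cells at an adjusted p under 0.05 (limma), with the number tested in brackets, ordered by median difference. Dashed lines mark the shares among all 9063 genes tested, 28.3% and 27.1%, and interstitial matrix and Hox genes lie farthest to the right.

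Basement membrane and interstitial matrix ran in opposite directions. Of 18 tested basement membrane genes, 10 were lower in END2 cells, 5 higher and 3 did not pass (median -0.72). Lamc1, the laminin chain shared by most laminins, read 11.29, 11.41 and 11.37 in END2 and 14, 14.31 and 13.85 in XEN cells, 6.49-fold lower in END2 without overlap (adjusted p = 2.09e-07, limma). Lamb1, the partner of Lama1 and Lamc1 in the same trimer, read 5.75, 6.16 and 6.58 against 10.42, 10.45 and 10.06, 17.8-fold lower (adjusted p = 0.00015). All 3 chains of that trimer were thus lower in END2 cells. Smoc1, a calcium-binding matrix protein, was at least 27.9-fold lower (adjusted p = 7.5e-10). Smaller differences separated Col4a1, the common collagen IV chain, at 2.13-fold lower (adjusted p = 0.00165) and the linker protein gene Nid1 at 2.02-fold lower (adjusted p = 0.00415).

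Other chains of the same families were higher in END2 cells. Lama5, the laminin chain of mature epithelia, read 10.44, 10.53 and 10.45 in END2 and 7.3, 6.95 and 6.98 in XEN cells, 10.5-fold higher in END2 (adjusted p = 1.73e-08, limma). Col4a5, a collagen IV chain of specialised membranes, read 10.51, 10.98 and 10.82 in END2 and was undetected in XEN cells at 4.36, 4.34 and 4.37, at least 37.9-fold higher (adjusted p = 1.17e-10). Its neighbour and partner Col4a6 was also undetected in XEN cells, and it was at least 4.21-fold higher in END2 (adjusted p = 7.53e-06). Perlecan (Hspg2), the main proteoglycan of basement membranes, differed by -0.40 and did not pass (SE 0.164, adjusted p = 0.0596). Sparc, a collagen-binding protein of the parietal endoderm, differed by -0.78 (SE 0.293, adjusted p = 0.043), and this call was lost without any of 4 arrays of these lines (END2 replicates 1 and 3, XEN replicates 1 and 2) at adjusted p between 0.0623 and 0.17.

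Of 25 interstitial matrix genes on the array 19 were tested, of which 17 were higher in END2 cells, 1 (Mfap5) was lower and Vcan did not pass. Their median difference was 3.68, or 2.72 with bounds, and 11 were detected on all END2 arrays and on no XEN array. Dcn, the proteoglycan decorin that binds collagen fibrils, read 13.22, 13.43 and 12.11 in END2 and 4.75, 4.71 and 4.65 in XEN cells, at least 168-fold higher in END2 (adjusted p = 8.36e-10, limma). Col1a1, a chain of the fibrillar collagen of skin and bone, read 10.78, 10.5 and 10.94 against 4.49, 4.46 and 4.36, at least 37.2-fold higher (adjusted p = 1.61e-10). Fn1, which encodes fibronectin, read 11.57, 11.83 and 10.06 against 4.58, 4.66 and 4.47, at least 49.5-fold higher (adjusted p = 3.74e-08). None of these genes was detected on a XEN array. Col1a2, the other chain of the same collagen as Col1a1, was near the lowest detected levels in END2 cells. Its mean there was 5.34, with 2 END2 arrays detecting it, beside 4.5 in XEN cells, where it was undetected (adjusted p = 0.0157). Col6a1, a chain of the beaded microfibrils around cells, was at least 103-fold higher (adjusted p = 1.66e-06), and Col5a1, a collagen that starts fibrils, at least 41-fold (adjusted p = 2.31e-10).

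Enzymes that act on collagen differed in both directions. Of 17 tested, 11 were lower in END2 cells and 5 higher (median -1.14). The lower genes included many that act in the endoplasmic reticulum, namely the prolyl hydroxylases P4ha1, P4ha2, P3h1 and P3h2, the lysyl hydroxylases Plod1, Plod2 and Plod3, the collagen chaperone Serpinh1 and Crtap. P4ha2 read 9.96, 9.98 and 10.17 in END2 and 12.24, 12.59 and 12.31 in XEN cells, 5.07-fold lower in END2 (adjusted p = 2.19e-07, limma). The higher genes were P4ha3 and P3h3, of the same compartment, and Lox, Loxl1 and Pcolce, which act outside the cell. Lox, the lysyl oxidase that crosslinks fibrils, read 10.33, 10.56 and 10.4 in END2 and 4.41, 4.54 and 4.54 in XEN cells, at least 30-fold higher (adjusted p = 1.17e-10). Loxl1, a second lysyl oxidase, was at least 6.79-fold higher (adjusted p = 1.82e-07), and Pcolce, which speeds the trimming of procollagen, at least 27.3-fold (adjusted p = 1.17e-10). Bmp1, the protease that does this trimming, was an exception on the lower side, with a difference of -1.46.

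Among proteases of the cell surface and their inhibitors, 10 of 17 tested genes were higher in END2 cells and 6 lower (median 1). Mmp2, a gelatinase of mesenchymal cells, read 12.88, 13.35 and 12.39 in END2 and 4.48, 4.44 and 4.68 in XEN cells, at least 163-fold higher in END2 (adjusted p = 1.4e-10, limma). Mmp14, the membrane protease that activates Mmp2, read 10.41, 10.63 and 9.27 against 5.71, 6.08 and 4.63, 24.8-fold higher without overlap (adjusted p = 1.62e-06). The inhibitors Timp2 and Timp3 were higher too, by 1.00 and 1.37 on the log2 scale. Other genes of the list were lower in END2 cells. Thbd, which encodes thrombomodulin, read 4.32, 4.38 and 4.37 in END2 and 10.47, 11.15 and 10.97 in XEN cells, at least 46.3-fold lower in END2 (adjusted p = 2.38e-09). Tfpi, the tissue factor inhibitor, was 17.6-fold lower (adjusted p = 9.32e-10), and Plat, the tissue plasminogen activator, 3.51-fold lower (adjusted p = 4.24e-05), while Plau, the urokinase, was at least 2.29-fold higher (adjusted p = 2.66e-05).

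Of 9 tested integrins 4 were higher and 3 lower in END2 cells. Itga11, a receptor for fibrillar collagen, was at least 4.7-fold higher (adjusted p = 2.17e-07, limma) and Itgav, a partner in fibronectin and vitronectin receptors, 5.84-fold higher (adjusted p = 1.89e-06). Itga6, a subunit of the laminin receptors, was undetected in END2 cells and at least 2.35-fold lower there (adjusted p = 0.000254).

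Epithelial genes were mixed. Of 28 on the array 15 were undetected in both lines, among them Epcam and Cldn4, and of 13 tested 7 were lower and 3 higher in END2 cells (median -0.72, or -0.43 with bounds). Cldn6, a tight junction protein of embryonic epithelia, read 4.55, 4.41 and 4.71 in END2 and 11.3, 11.92 and 11.49 in XEN cells, at least 75.4-fold lower in END2 (adjusted p = 9.92e-10, limma). The partner keratins of simple epithelia moved in opposite directions, Krt8 2.19-fold lower (adjusted p = 0.000798) and Krt18 2.53-fold higher in END2 (adjusted p = 3.41e-05). Krt19, a keratin of mesothelium and ducts, read 9.81, 9.71 and 9.97 in END2 and 4.57, 4.6 and 4.39 in XEN cells, at least 19.8-fold higher in END2 (adjusted p = 1.01e-09). The brightest probe of E-cadherin (Cdh1) was undetected on the END2 arrays and at least 1.46-fold lower there (adjusted p = 0.00222), and a dimmer probe was detected on 1 END2 array.

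Contractile and caveolar genes of mesenchyme and smooth muscle were higher in END2 cells in 15 of 22 tested, and lower in 2 (median 1.42, or 0.96 with bounds). Cav1, the coat protein of caveolae, read 12.13, 12.27 and 12.66 in END2 and 4.31, 4.35 and 4.33 in XEN cells, at least 114-fold higher in END2 (adjusted p = 6.38e-11, limma). The cavins that complete this coat followed, Cavin2 at least 23.4-fold (adjusted p = 1.47e-09) and Cavin1 at least 8.77-fold higher (adjusted p = 3.21e-09), so that no XEN array detected any of these 3 genes. Acta2, the smooth muscle actin, was detected on every array. It read 14.34, 14.41 and 14.44 in END2 and 10.81, 11.65 and 11.4 in XEN cells, 8.63-fold higher in END2 (adjusted p = 1.73e-07). Actg2, another smooth muscle actin, was the member most uneven in END2 cells, at 7, 6.89 and 9.45.

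Transcription factors of mesenchyme and mesoderm were higher in END2 cells in 12 of 16 tested and lower in 3, while 13 of 30 on the array were undetected in both lines. Tcf21, a factor of the epicardium and of visceral mesoderm, read 8.75, 9.12 and 7.24 in END2 and 4.94, 4.51 and 4.65 in XEN cells, at least 7.19-fold higher (adjusted p = 7.69e-06, limma). Gata2, a GATA factor of blood and mesoderm, read 8.53, 8.24 and 8.42 against 4.84, 5.09 and 5.32, at least 7.3-fold higher (adjusted p = 2.84e-07), and Gata3 was at least 4.65-fold higher (adjusted p = 3.06e-07). These GATA factors were undetected on every XEN array, while Gata4 was higher in XEN cells. Snai2 and Snai1, sister repressors of epithelial genes, differed in opposite directions, Snai2 at least 2.56-fold higher and Snai1 4.79-fold lower in END2 cells. Tbx3, a T-box factor that the pluripotency list holds too, was at least 15.1-fold lower in END2 cells (adjusted p = 4.44e-09).

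Hox genes, which give cells their position along the body, were detected more often in END2 than in XEN cells. Of 38 on the array 18 were tested and 18 were undetected in both lines, and the remaining 2 fell short of presence. Among the tested genes, 15 were higher in END2 cells, 0 were lower and Hoxb4, Hoxc10 and Hoxc13 did not pass (median 2.53, or 1.88 with bounds). All 3 END2 arrays and no XEN array detected 12 of them. Hoxb7 read 9.92, 9.95 and 9.71 in END2 and 4.67, 5.35 and 4.44 in XEN cells, at least 20.2-fold higher (adjusted p = 1.23e-08, limma). Hoxd8 read 8.77, 8.82 and 8.8 against 4.85, 4.68 and 4.5, at least 9.64-fold higher (adjusted p = 2.54e-09). The END2 arrays agreed closely for these members. Hoxa5 was at least 10.5-fold (adjusted p = 7.01e-08) and Hoxc6 at least 11.4-fold higher (adjusted p = 2.92e-09), so that the genes came from all 4 clusters. Hoxc9, which 2 XEN arrays detected, read 10.24, 9.93 and 10.1 in END2 and 5.4, 5.53 and 6.79 in XEN cells, 18.2-fold higher in END2 (adjusted p = 4.15e-07). The highest-numbered members that passed were Hoxa9, Hoxc9, Hoxd9 and Hoxd10, which pattern the trunk. Of the hindmost group on the array, Hoxb13 and Hoxd13 were undetected in both lines and Hoxc13 did not pass.

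Signalling genes differed in both directions, as the tested genes did as a whole. Of 16 tested genes for ligands and antagonists of the BMP, TGFbeta and Nodal families, 9 were higher in END2 cells and 5 lower (median 1.41, or 0.91 with bounds). Bmp4, a ligand that patterns mesoderm, read 11.57, 12.15 and 11.2 in END2 and 4.88, 4.63 and 4.48 in XEN cells, at least 69.3-fold higher in END2 (adjusted p = 5.86e-10, limma). Tgfb3 was at least 13-fold higher (adjusted p = 7.21e-09), and Ltbp3, which holds latent TGFbeta in the matrix, 31.3-fold (adjusted p = 5.89e-09). XEN cells held more of other members. Bmp6, a ligand close to Bmp5 and Bmp7, read 4.57, 4.93 and 4.68 in END2 and 6.35, 6.7 and 6.34 in XEN cells, at least 2.19-fold lower in END2 (adjusted p = 2.8e-05). The BMP antagonist Nog was 10.3-fold lower in END2 (adjusted p = 1.08e-06) and the activin antagonist Fst 6.18-fold lower (adjusted p = 0.00106), whereas the antagonist Chrd was 5.03-fold higher (adjusted p = 4.32e-06).

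Genes that respond to BMP and TGFbeta were higher in END2 cells in 6 of 10 tested, and Ccn2 was lower (median 2.02). Id1, a direct BMP target, read 11.98, 11.89 and 11.36 in END2 and 8.4, 7.21 and 6.52 in XEN cells, 20.6-fold higher in END2 (adjusted p = 5.06e-06, limma). Its lowest END2 array was far above its highest XEN array. Smad6, a feedback inhibitor of BMP signalling, was at least 4.19-fold higher (adjusted p = 2.66e-05) and Id4 at least 3.85-fold (adjusted p = 8.86e-07), while Id2 did not pass, with a difference of -0.02. Ccn2, a target shared by TGFbeta and YAP, read 11.46, 11.58 and 12.49 in END2 and 14.5, 14.68 and 14.5 in XEN cells, 6.58-fold lower in END2 (adjusted p = 9.21e-05).

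Of 18 tested Wnt pathway genes 9 were higher and 5 lower in END2 cells, and 21 of 43 on the array were undetected in both lines. The share that was lower (27.8%) was near the 27.1% of all tested genes, and ligands were called in each direction. Wnt5a, a ligand of mesenchyme, read 9.67, 10.03 and 10.44 in END2 and 4.42, 4.36 and 4.55 in XEN cells, at least 22.9-fold higher (adjusted p = 9.28e-10, limma). Wnt7b, a ligand of epithelia, read 5.31, 5.7 and 6.53 in END2 and 9.58, 9.3 and 10.64 in XEN cells, 16-fold lower (adjusted p = 2.48e-06). Porcn, the enzyme that loads Wnt ligands with lipid, was 8.38-fold lower in END2 (adjusted p = 3.1e-07). Of the secreted antagonists, Sfrp2 was at least 2.8-fold higher (adjusted p = 4.32e-06) and Dkk1 at least 1.67-fold lower (adjusted p = 5.92e-05).

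Growth factor ligands, receptors and binding proteins were higher in END2 cells in 19 of 34 tested and lower in 10 (median 1.15, or 0.38 with bounds). Egfr, the EGF receptor, read 11.33, 11.03 and 10.81 in END2 and 4.53, 4.37 and 4.41 in XEN cells, at least 46.3-fold higher (adjusted p = 1.17e-10, limma). Its ligand genes Tgfa and Ereg were undetected in both lines, while Btc was at least 1.24-fold higher in END2 cells (adjusted p = 0.00114). Kit, the receptor for stem cell factor, read 4.56, 4.53 and 4.42 in END2 and 11.64, 12.03 and 11.28 in XEN cells, at least 80-fold lower (adjusted p = 1.74e-10). Each receptor was undetected in the other line, and Kitl, the ligand of Kit, was undetected in both lines. The PDGF system was split between the lines, and Pdgfrb was undetected in both. The receptor gene Pdgfra was higher in XEN cells as given above, and the ligand genes were higher in END2 cells. Pdgfa read 10.55, 10.68 and 9.82 in END2 and 7.59, 7.63 and 7.84 in XEN cells, 6.34-fold higher in END2 (adjusted p = 3.63e-06), Pdgfb was at least 4.73-fold (adjusted p = 6.24e-05) and Pdgfc at least 4.13-fold higher (adjusted p = 2.46e-06).

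The IGF binding proteins stood out within this group, since Igfbp2, Igfbp3, Igfbp4, Igfbp5, Igfbp6 and Igfbp7 were all higher in END2 cells. Igfbp7, a matrix-bound member, read 10.47, 11.15 and 11.14 in END2 and 4.52, 4.78 and 4.42 in XEN cells, at least 42-fold higher (adjusted p = 5.86e-10, limma). Igfbp2 was at least 43.6-fold higher (adjusted p = 7.5e-10). Igfbp3 read 10.48, 11.08 and 8.18 in END2 cells, uneven between arrays but all above the 4.59, 4.82 and 4.66 of XEN cells. Igf2r, the receptor that clears IGF2, ran the other way at 5.56, 5.59 and 5.25 in END2 and 9.42, 9.05 and 8.84 in XEN cells, 12.5-fold lower (adjusted p = 2.94e-08). Among FGF ligands, Fgf5, a factor of the early epiblast, was at least 21-fold higher in END2 (adjusted p = 2.33e-08) and Fgf10 was 3.96-fold lower (adjusted p = 0.000403).

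Feedback and output genes of ERK signalling were higher in END2 cells in 10 of 20 tested and lower in 1 (Spry4), with 9 that did not pass (median 1.18). Dusp6, the phosphatase that switches ERK off, read 13.02, 13.02 and 13.18 in END2 and 9.2, 9.58 and 9.2 in XEN cells, 13.4-fold higher in END2 (adjusted p = 4.48e-08, limma). Dusp5 was 6.71-fold higher (adjusted p = 5.01e-07) and Ier3, an early response gene, 20.2-fold (adjusted p = 2.23e-07). Egr1, the textbook early response gene, did not pass. It read 12.56, 12.52 and 8.98 in END2 and 11.43, 8.82 and 9.54 in XEN cells, so the arrays overlapped and END2 replicate 3 lay with the XEN arrays (difference 1.42, SE 0.864, adjusted p = 0.188).

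**Figure D3:**
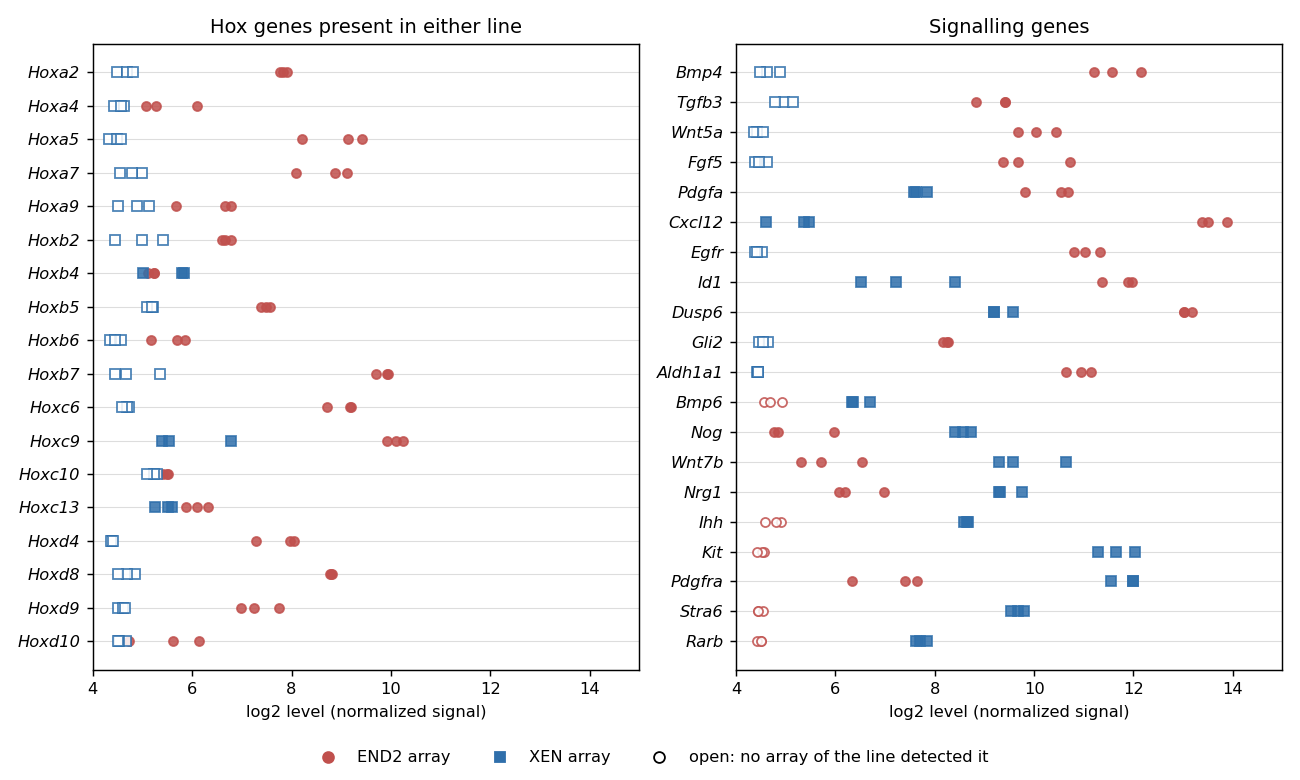
Log2 level of the 18 tested Hox genes (left) and of 20 signalling genes chosen for the text (right) on each END2 array (circles) and each XEN array (squares), with open symbols where no array of the line detected the gene. No XEN array detected 15 of the Hox genes, while Bmp4, Wnt5a and Egfr in END2 cells stand against Kit, Pdgfra and Wnt7b in XEN cells.

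In the Hedgehog and Notch pathways 8 of 17 tested genes were higher and 4 lower in END2 cells. Ihh, the Hedgehog ligand of visceral endoderm, read 4.58, 4.9 and 4.81 in END2 and 8.58, 8.64 and 8.66 in XEN cells, at least 9.81-fold lower in END2 (adjusted p = 3.41e-09, limma). Higher in END2 cells were the co-receptor Cdon, at least 18.8-fold (adjusted p = 1.52e-09), the transducer Smo 3.62-fold (adjusted p = 3.89e-06) and the effector Gli2 at least 6.52-fold (adjusted p = 3.19e-09). Ptch1, a receptor and target gene, differed by 0.11 and did not pass (SE 0.208, adjusted p = 0.684).

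Retinoid genes were also called in both directions. Of 12 tested 6 were higher and 4 lower in END2 cells. Aldh1a1, an enzyme that makes retinoic acid, read 10.64, 11.15 and 10.94 in END2 and 4.41, 4.43 and 4.44 in XEN cells, at least 41.7-fold higher in END2 (adjusted p = 1.17e-10, limma). XEN cells held the membrane receptor for vitamin A uptake, Stra6 (at least 20.2-fold lower in END2, adjusted p = 4.85e-10), the degrading enzyme Cyp26a1 (20.2-fold lower, adjusted p = 1.09e-08) and the receptor and target gene Rarb (at least 5.27-fold lower, adjusted p = 1.19e-08). Stra6 and Rarb were undetected on every END2 array.

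Chemokines, cytokines and their receptors were higher in END2 cells in 10 of 16 tested and lower in 3 (median 1.3, or 0.77 with bounds). The receptors of Cxcl12, Cxcr4 and Ackr3, were undetected in both lines. Cxcl1, which draws neutrophils, was at least 10.9-fold higher in END2 cells (adjusted p = 1.33e-08, limma), and Ccl7, which draws monocytes, at least 10.4-fold (adjusted p = 3e-07). Csf1, the macrophage growth factor, read 8.9, 8.89 and 9.79 in END2 and 5.64, 5.65 and 5.74 in XEN cells, 11.4-fold higher (adjusted p = 1.56e-07). Lifr, the receptor for LIF, was 6.11-fold lower in END2 (adjusted p = 1.74e-06).

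Interferon response and MHC class I genes were higher in END2 cells in 17 of 23 tested and lower in 3 (median 0.8). Ifitm2, a membrane protein that blocks virus entry, read 11.73, 11.71 and 11.41 in END2 and 7.07, 6.91 and 6.54 in XEN cells, 27.5-fold higher (adjusted p = 2.12e-09, limma), and the transcription factor Irf1 was 9.3-fold higher (adjusted p = 1.65e-07). H2-K1, a class I heavy chain, cannot be given a direction. Its brighter probe was at least 5.99-fold lower in END2 (adjusted p = 5.03e-08) and a second probe at least 1.23-fold higher (adjusted p = 0.000415). Each probe was detected on all 3 arrays of a single line. Over all genes, 58 of the 1504 with 2 or more called probes had probes called in opposite directions.

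Pluripotency genes did not mark END2 cells, although their parent line is an embryonal carcinoma. Of 22 on the array 8 were undetected in both lines, and of 12 tested 10 were lower in END2 cells and 2 (Nanog and Klf2) higher (median -3.10, or -2.66 with bounds). Nanog, a homeobox gene of the inner cell mass, read 6.41, 6.52 and 7.02 in END2 and 4.77, 4.47 and 4.79 in XEN cells, at least 2.18-fold higher in END2 (adjusted p = 8.93e-06, limma). Fbxo15, an ES cell F-box gene, read 4.6, 4.74 and 4.55 against 11.16, 10.97 and 11.31, at least 56.3-fold lower in END2 (adjusted p = 1.17e-10). The genes that XEN cells held were in part not specific to pluripotent cells. Lin28a, an RNA-binding protein that blocks let-7 maturation, was at least 23.1-fold lower in END2 (adjusted p = 7.89e-10), Trim71 at least 13.9-fold (adjusted p = 4.09e-08) and Klf5 22.3-fold lower (adjusted p = 8.19e-08). In the DNA methylation and Polycomb group, 9 of 20 tested genes were lower and 5 higher. Dnmt3b, a de novo DNA methyltransferase, read 7.51, 7.56 and 7.67 in END2 and 12.6, 12.81 and 12.69 in XEN cells, 34.8-fold lower in END2 (adjusted p = 2.31e-10).

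Neural and muscle genes were seldom detected. Of 19 neural genes on the array 14 were undetected in both lines, and the 4 tested were all higher in END2 cells, with Map2, a microtubule protein of neurons, at least 10.4-fold (adjusted p = 3.56e-09, limma) and Otx1, a homeobox gene of the forebrain, at least 11.3-fold higher (adjusted p = 1.99e-07). Of 23 genes of cardiac and skeletal muscle 16 were undetected in both lines, and of 7 tested 2 were higher and 3 lower. Myl7, the atrial light chain, read 8.45, 8.35 and 6.91 in END2 and 4.48, 4.45 and 4.42 in XEN cells, at least 5.2-fold higher in END2 (adjusted p = 3.88e-06). Myl3, the ventricular and slow muscle light chain, read 4.7, 4.44 and 4.51 against 10.51, 10.09 and 9.93, at least 28.8-fold lower (adjusted p = 3.63e-09). Each line thus held 1 of these light chains.

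Imprinted genes, which are expressed from 1 parental copy, were split evenly, with 6 higher and 6 lower of 17 tested (median 0.02). Mest read 12.49, 13.07 and 11.86 in END2 and 4.6, 5.64 and 5.41 in XEN cells, 153-fold higher in END2 (adjusted p = 2.99e-08, limma), and Nnat was at least 30.2-fold higher (adjusted p = 1.17e-10). Ndn read 5.24, 5.35 and 4.49 against 9.82, 9.81 and 9.69, 26.9-fold lower (adjusted p = 1.94e-08). The sex chromosomes separated the lines as well. Xist, the RNA that coats the inactive X chromosome, read 4.57, 4.49 and 4.75 in END2 and 8.63, 10.1 and 8.89 in XEN cells, at least 14.7-fold lower in END2 (adjusted p = 2.05e-07). Eif2s3y, a gene of the Y chromosome, read 8.89, 9.13 and 8.9 in END2 and 4.38, 4.37 and 4.51 in XEN cells, at least 10.9-fold higher (adjusted p = 6.71e-10). Its X-linked partner Eif2s3x was 2.78-fold lower in END2 (adjusted p = 5.64e-05). Sex, origin and line cannot be told apart here. Rhox5, an X-linked homeobox gene of extra-embryonic tissue, was 27.3-fold lower in END2 cells (adjusted p = 7.43e-09).

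Lysosomal genes were lower in END2 cells as a broad and mostly shallow shift. Of 35 on the array 30 were tested, and 21 were lower, 3 higher and 6 did not pass (median -0.92). Ctsh, a cathepsin with aminopeptidase activity, read 5.44, 5.73 and 5.36 in END2 and 12.46, 12.56 and 12.09 in XEN cells, 116-fold lower in END2 (adjusted p = 1.17e-10, limma). Lgmn, the asparaginyl protease legumain, read 10.98, 11.15 and 10.8 against 13.02, 13.63 and 13.1, 4.83-fold lower (adjusted p = 1.98e-06). Lamp1, the main protein of the lysosomal membrane, read 12.12, 12.08 and 11.86 against 13.19, 13.43 and 12.99, 2.27-fold lower (adjusted p = 0.000111). The arrays of the lines did not overlap for these genes. Ctsb (2.39-fold lower, adjusted p = 0.000366) and Lamp1 belong to the abundant housekeeping part of the organelle. Smpd1, the acid sphingomyelinase, was a clear exception at 9.6, 9.65 and 10.13 in END2 and 4.65, 4.68 and 4.64 in XEN cells, at least 19.3-fold higher in END2 (adjusted p = 1.18e-09).

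**Figure D4:**
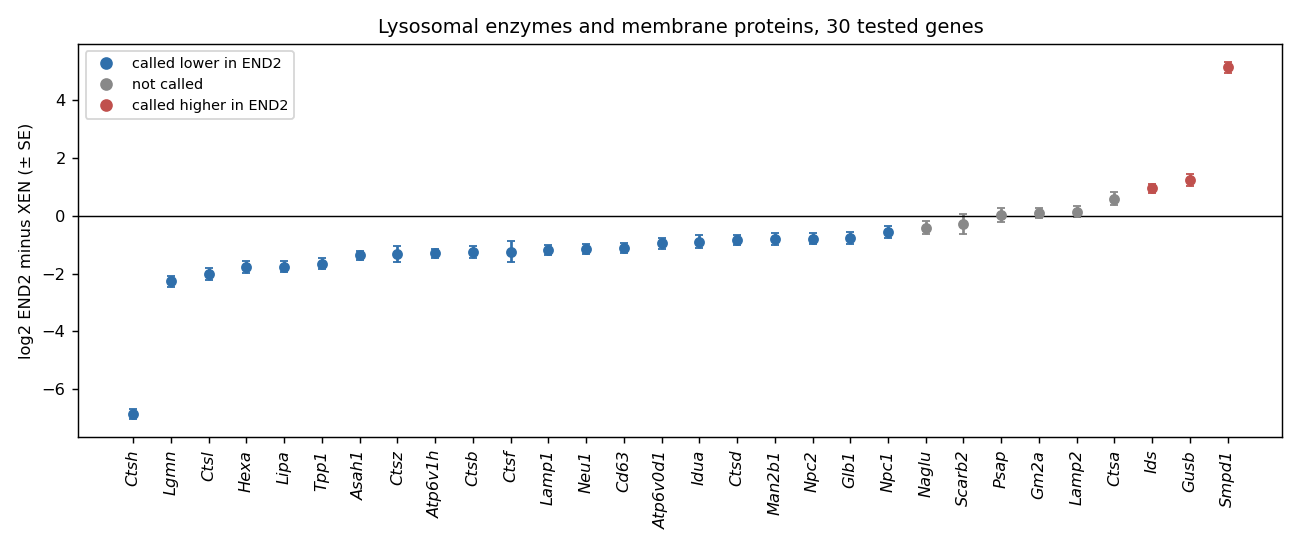
Log2 difference, END2 minus XEN, of the 30 tested lysosomal genes, ordered by size, with bars of 1 SE from the limma fit and colours for the call at an adjusted p under 0.05. The 21 lower genes include Ctsh at -6.86 and end with Npc1 at -0.56. Smpd1, at least 19.3-fold higher and drawn at its fitted difference, lies highest of the 3 genes called higher.

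Promoters of these lysosomal genes are shown because their members moved together and because many lysosomal promoters are known to hold the letters CACGTG, an E-box that reads the same on both strands. The windows cover 250 bases before to 50 after each RefSeq start (GRCm38.p6), with CACGTG in capitals and 20 bases on either side.
Lamp1, chr8:13159080-13159171, plus strand: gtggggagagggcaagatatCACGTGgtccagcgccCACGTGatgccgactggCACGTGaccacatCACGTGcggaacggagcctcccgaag
Lgmn, chr12:102439116-102439161, minus strand: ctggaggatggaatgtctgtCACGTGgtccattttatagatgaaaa
Ctsd, chr7:142387900-142387945, minus strand: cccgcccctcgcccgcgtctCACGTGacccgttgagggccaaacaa
Glb1, chr9:114401010-114401055, plus strand: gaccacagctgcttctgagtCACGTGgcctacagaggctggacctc

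The Lamp1 window holds 4 copies within a short stretch. Ctsd has a second CACGTG further from its start, which is not shown. Of the 21 lysosomal genes that were lower in END2 cells 16 had a promoter in the RefSeq table, and 7 of these (43.8%) held CACGTG: Lamp1, Lgmn, Ctsd, Glb1, Ctsl, Ctsf and Atp6v0d1. Among the 25 tested lysosomal genes with a promoter it was 9 (36%). Over all promoters of genes on the array 1448 of 15237 (9.5%) held it, and 9.24% of the genes higher and 14.2% of those lower in END2 cells did, beside 12.8% of the tested genes that were not called. The letters AGATAA, which proteins such as Gata4 recognize, were found on either strand in 6.92% of the promoters of higher and 8.68% of those of lower genes, beside 7.39% of all tested genes. The CArG box, CC and GG around a stretch of A or T, was searched for as well. Of the contractile genes higher in END2 cells 12 had a promoter, and 1 of these (8.33%), that of Myl9, held it, beside 1.69% of all tested genes. Such matches describe the letters of these windows and were not tested.

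Genes of the secretory pathway and the unfolded protein response were lower in END2 cells in 14 of 29 tested and higher in 4 (median -0.32). Kdelr3, which returns escaped proteins to the endoplasmic reticulum, read 9.96, 10.1 and 10.61 in END2 and 12.68, 12.57 and 12.95 in XEN cells, 5.69-fold lower (adjusted p = 1.69e-06, limma). Sec24d, a coat protein of vesicles that leave the endoplasmic reticulum, read 4.38, 4.46 and 4.39 against 8.19, 8.34 and 8.17, at least 7.47-fold lower (adjusted p = 4.97e-09). Ern1, a stress sensor of the same compartment, went the other way at 4.22-fold higher (adjusted p = 1.89e-05).

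Among metabolic genes a glucose transporter differed most within its group. Slc2a3, a high-affinity glucose transporter, read 9.56, 9.47 and 9.55 in END2 and 13.03, 13.3 and 12.71 in XEN cells, 11.2-fold lower in END2 (adjusted p = 1.46e-08, limma), while the rest of the glycolysis and hypoxia group held 4 higher and 5 lower genes and 14 that did not pass. Of the group's enzymes, Pfkp was at least 3.47-fold higher (adjusted p = 7.14e-06). Cholesterol synthesis and uptake gave 3 higher and 6 lower of 19 tested, with Msmo1, a sterol oxidase, 4.44-fold lower (adjusted p = 3.93e-05). Amino acid transporters and stress genes under Atf4 were among the higher genes in END2 cells, with Slc7a3 at least 7.8-fold (adjusted p = 5.13e-07), Slc7a11 at least 3.63-fold (adjusted p = 0.00019) and Trib3 7.78-fold higher (adjusted p = 0.000846). The whole group had 8 higher and 5 lower of 23, and Atf4 itself differed by 0.36 and did not pass (SE 0.388, adjusted p = 0.468).

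Glutathione and antioxidant enzymes were called in both directions at shares near those of all tested genes. Mgst1, a membrane-bound glutathione transferase, read 12.14, 11.76 and 10.76 in END2 and 5.69, 5.12 and 4.69 in XEN cells, 83.8-fold higher in END2 (adjusted p = 2.45e-08, limma). Its relative Mgst3 was 5.69-fold lower (adjusted p = 3.28e-07). Gsta3 was at least 17.2-fold higher (adjusted p = 1.66e-06) and the secreted peroxidase Gpx3 at least 9.7-fold lower (adjusted p = 1.05e-07). Over the group 10 of 29 were higher (34.5%, beside 28.3% of all tested genes) and 6 lower (20.7%, beside 27.1%), with a median of -0.06.

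Genes of the ribosome differed least often among the groups tested. Of 40 tested genes for cytosolic ribosomal proteins 5 were lower and 0 higher in END2 cells, the lowest being Rps13 at 1.63-fold (adjusted p = 0.00569, limma), and 3 were lower without END2 replicate 3. The median of -0.05 turned to 0.07 after cyclic loess. Of 45 subunits of oxidative phosphorylation 13 were lower and 5 higher (8 without END2 replicate 3), and of 32 genes of the mitotic cell cycle 7 were lower and 2 higher. Control of G1 did differ, with 8 higher and 6 lower of 17. Cdkn2b, an inhibitor of Cdk4 and Cdk6, read 10.36, 10.83 and 10.58 in END2 and 5.52, 5.65 and 5.7 in XEN cells, 31.3-fold higher in END2 (adjusted p = 1.29e-09). Cdkn1a, the p53 target p21, was 4.72-fold lower (adjusted p = 2.74e-06), and Rb1, the retinoblastoma protein that these inhibitors act through, read 6.42, 6.47 and 7.14 against 8.95, 9.25 and 8.63, 4.81-fold lower in END2 (adjusted p = 1.22e-05).

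Differences between the lines were also looked at along the genome. Genes were put in RefSeq order, and 9057 could be placed. There were 74 runs of 3 or more neighbours that were all at least 2-fold higher in END2 cells (252 genes) and 55 runs of neighbours that were all at least 2-fold lower (213 genes). Of all tested genes 16.9% were higher and 15.6% lower by that much, so some short runs would arise without any clustering. The number to be expected was not computed, so the counts cannot say whether such genes cluster, and this was not tested. The counts were smaller with the authors' normalized values, as given further below. The longest run of higher genes held 8, from Fras1 to Prkg2 on chromosome 5, with Fgf5 among them. Other runs held related genes, such as 5 neighbours with the semaphorins Sema3a, Sema3c, Sema3d and Sema3e, and 4 with Cdkn2a and Cdkn2b. The 4 longest runs of lower genes held 15, 11, 9 and 8, and all lay on chromosome 14. Sox7, Gata4 and Ctsb belong to the run of 9, and Rb1 to the run of 11. The chromosomes were looked at after these runs had been seen, so the values that follow are descriptions without a test.

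Chromosome 14 had the lowest median of all chromosomes, -0.61 over 303 tested genes, with 15.2% higher and 54.1% lower in END2 cells. The lower genes were concentrated towards its end, with bounds chosen after the values were seen. From Nudt18 to Tmtc4, 59 of 65 tested genes were lower (90.8%), Scel and Mbnl2 were higher and 4 did not pass. The median difference there was -1.89 (-0.94 with the authors' normalized values and -1.63 without normalization between arrays). It was -2.08 over the 41 genes detected on all 6 arrays, which pass the presence filter through either line. The bounds came from these same differences, so this median is no separate support. Median levels over the 65 genes were 6.48, 6.36 and 6.58 on the END2 arrays and 8.49, 8.47 and 8.47 on the XEN arrays, so that all END2 arrays moved alike. Elsewhere on chromosome 14, where Gata4 and Sox7 lie, 105 of 238 genes were lower and 44 higher (median -0.38). Genes of unrelated function shared the shift. Med4, a subunit of Mediator, read 7.89, 7.71 and 8.02 in END2 and 10.96, 11.03 and 10.86 in XEN cells (adjusted p = 2.72e-08, limma). Uchl3, a ubiquitin hydrolase, read 8.61, 8.58 and 8.67 against 10.92, 11.13 and 10.94 (adjusted p = 2.59e-06), and Ipo5, a nuclear import receptor, 9.33, 8.83 and 10.05 against 11.92, 12.23 and 12.07 (adjusted p = 6.6e-06). Mir17hg, the host transcript of the miR-17 cluster, read 5.51, 5.54 and 5.44 against 8.06, 7.97 and 8.21 (adjusted p = 1.18e-06). Klf5, Rb1 and Sox21 lie in the same stretch. Against PYS2 cells, the median over this stretch was -1.06 for END2 cells and 0.55 for XEN cells, contrasts that share arrays with the one between END2 and XEN.

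Chromosome 6 ran the other way, with a median of 0.64 over 465 genes, 53.8% higher and 11% lower in END2 cells (0.53 over the 330 genes detected on all 6 arrays). The shift was present along most of its length and was least between Chmp3 and Kbtbd8. It was largest from Tulp3 to Dera, where 25 of 29 genes were higher (median 1.30). Median levels of chromosome 6 genes were 8.51, 8.57 and 8.52 on the END2 arrays and 7.79, 7.78 and 7.73 on the XEN arrays. Cav1, Cxcl12, Mest, Gata2, Smo, Mgst1, Nanog and the Hoxa genes lie on this chromosome. Its median against PYS2 cells was 0.47 for END2 and -0.11 for XEN cells.

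**Figure D5:**
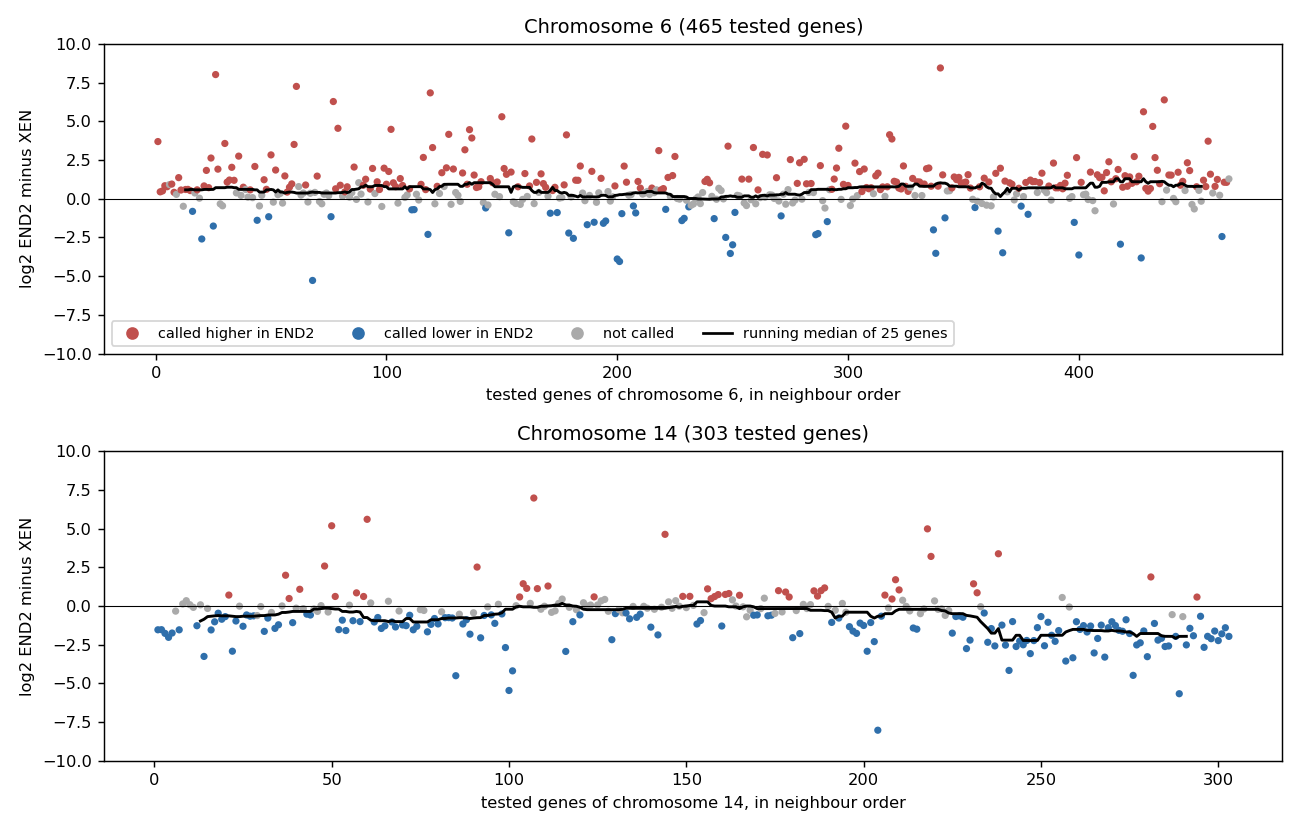
Log2 difference, END2 minus XEN, of each tested gene on chromosomes 6 (465 genes) and 14 (303 genes), in neighbour order, with colours for the call at an adjusted p under 0.05 (limma) and a running median of 25 genes. The running median lies above 0 along most of chromosome 6, and it drops near the end of chromosome 14, where 59 of 65 genes were lower.

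Chromosomes 7, 16 and X had medians of -0.44, -0.45 and -0.46, with 45.7%, 46.8% and 47.3% of their genes lower in END2 cells, and chromosome 2 had a median of 0.30 with 38.8% higher. The medians of chromosomes 6, 7, 14, 16 and X kept their sign under each alternative that was run, but with the authors' normalized values they were 0.35, -0.27, -0.34, -0.28 and -0.26, and without normalization between arrays 0.78, -0.29, -0.49, -0.35 and -0.29. Gata4, 7.59-fold lower in END2 cells, and Sox7, at least 135-fold lower, lay outside the stretch from Nudt18 to Tmtc4 but in a run of lower genes, and Bmp4 (at least 69.3-fold) and Wnt5a (at least 22.9-fold) were higher on the same chromosome.

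END2 replicate 3 differed from the other END2 arrays in named genes. In 675 genes its level lay over 1 log2 unit from the mean of replicates 1 and 2, lower in 420 and higher in 255. Replicates 1 and 2 were that far apart in 27 genes, and XEN replicate 3 was that far from its group in 67. Angptl7, a secreted protein of connective tissue, read 9.88, 10.73 and 5.89 on the END2 arrays, and Tgm2, a crosslinking transglutaminase, read 12.11, 12.9 and 9.61. Plk2, a stress-induced kinase, went the other way at 9.52, 9.42 and 11.54. Of all genes called between the lines, replicate 3 was shifted from the mean of replicates 1 and 2 in the direction of XEN for 57.1%, whatever the size of the shift. Its part in each call was measured by leaving it out, and 4780 of the 5019 calls were kept.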

How the data were processed

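RNA of END2, XEN and PYS2 cells was hybridized to Illumina MouseWG-6 v2.0 bead arrays, 3 per line. The authors read the arrays in BeadStudio, and the deposited table holds the mean bead intensity of each probe. It also holds a detection score as a fraction from 0 to 1, per the file headers, and 1 minus it was used as the detection p. The authors' second table holds log2 values normalized with lumi (version and genome build not given in the sources used here), with column medians from 7.0344 to 7.0357, and served as an alternative. Groups came from the labels. The 24 columns of 3 further arrays in the scanner table matched no sample and were not used.

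Intensities were background-corrected, quantile-normalized over the 9 arrays and set to log2 with neqc (offset 16, limma 3.58.1 in R 4.3.3). Probes detected (p under 0.01) on at least 2 of the 3 arrays of END2 or XEN cells were tested, 15753 of 45281. 1 limma model over the 9 arrays gave the contrast END2 minus XEN, with Benjamini-Hochberg adjustment over these probes and a threshold of 0.05. The precision is limited by the 3 arrays per line and by the spread between them. GEO's platform annotation gave 1 gene symbol for 34885 probes, several for 18 and none for 10378, and 34807 of the 34885 matched RefSeq genes without a change of name.

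Genes were picked for naming by a rule. It took the 15 largest differences on each side (among genes detected on all arrays of the higher line, with arrays that do not overlap). It also took up to 4 called genes with the largest difference from each of the 40 lists. Genes the study names and list members detected on no array were added. The text names only part of these genes and leaves some lists undescribed. Other genes that are named were chosen after their values were seen. The members and lists were chosen with earlier results of these data known. Lists were described by counts and medians, without set tests. Replicate numbers are shared between the lines. Deviations of same-numbered END2 and XEN arrays correlated at -0.006, 0.145 and 0.313, and those of the other pairs at -0.292 to 0.208. The highest value was that of replicate 3, and an effect shared by its arrays was not tested. The arrays were not taken as pairs in the main fit. The slide of an array is not given. Alternatives were other normalizations and background corrections, other detection filters, other samples in the fit, the replicate number as a block, array weights, another treatment of the spread, the mean of a gene's probes, and each array left out in turn. The alternatives for runs and chromosomes, and the list counts without END2 replicate 3, were chosen after seeing the data.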

Additional observations from a re-analysis of the deposited data

How the results depend on the processing

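Under 22 alternatives the number of genes higher in END2 cells ranged from 1838 to 3188 and of genes lower from 1177 to 3195. The low ends came without normalization between arrays, where 1177 genes were lower, 60% of the 5019 calls were kept, the median over all genes was 0.15 and 61% of the called genes were higher (51.1% with it). The high ends came with array weights. No call changed direction except with the mean of a gene's probes, where 7 did. Leaving out 1 array gave 2224 to 2692 higher and 2105 to 2689 lower genes. With the replicate block, 2536 genes were higher and 2432 lower, and 4862 of the 5019 calls were kept. The authors' normalized values gave 2541 higher and 2442 lower genes with 4708 calls kept, and they gave smaller list medians, such as 2.18 for the interstitial matrix and 0.92 for the Hox genes.

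The genes detected in END2 only numbered 503 at a detection p under 0.05 and 619 to 832 with 1 array left out, and the genes detected in XEN only 430 and 431 to 470. Runs of neighbours fell to 16 higher and 11 lower with the authors' values, and to 24 and 27 without a filter on dim probes, where more genes are in the order. The median of the cardiac and skeletal muscle genes turned from -0.29 to 0.02 at a detection p under 0.05, where more of them are tested, and Grb2 from -0.15 to 0.08 without normalization (limma adjusted p = 0.889). The cause was not tested for the other changes. List medians near 0 also changed sign under single alternatives: integrins (-0.05), Hedgehog and Notch (-0.01) and retinoid genes (-0.01) without a filter, imprinted genes (-0.21 with the mean of probes), glutathione genes (0.01 with array weights) and ribosomal proteins (0.07 with cyclic loess). Of 191 genes picked by rule, not all of which the text names, 170 kept their call in every alternative in which they were tested.

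Differences of dim genes are limited by the background, since the lowest detected log2 level was 5.21 to 5.5 on the END2 arrays and 5.41 to 5.58 on the XEN arrays. Each line is 1 lineage with 3 arrays. Culture medium, origin and line cannot be told apart, and PYS2 arrays shaped the estimate of the spread.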
